A study of Danio rerio with 12 samples.

Results

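The transcriptomes of zebrafish embryos kept in empagliflozin were compared with those of embryos kept in canagliflozin at the same concentration, 50 µM, and for the same time. The members were 8 of the 12 RNA pools of the series, 4 per compound, and 11964 of the 14134 genes in the deposited table. The test took in genes that averaged at least 1 CPM across the 12 pools, and 2170 genes lay below that minimum. At the edge, LOC553228 just passed with a mean of 1.0002 CPM (0.851 CPM with empagliflozin and 0.991 CPM with canagliflozin), and zgc:112965 just failed with 0.998 CPM (0.840 and 0.721 CPM).

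Every pool held the RNA of 5 whole embryos (Danio rerio). The embryos were healthy and GFP-positive, so all 3 groups carried a fluorescent reporter. They were freed of the chorion, exposed from 23 hours after fertilization and collected at 27 hours, that is after 4 hours in the compound. The third group, also of 4 pools, received only DMSO, the solvent, and is the control that gives each gene a reference level. The labels give no line, promoter, clutch, day, lane or cell type of the GFP, and nothing that says whether pools of a group came from separate clutches. The p-values therefore measure the spread between these pools, which may be technical in part. There was 1 pair of compounds, at 1 dose and 1 time.

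Empagliflozin and canagliflozin are inhibitors of sodium-glucose cotransporters, the membrane proteins that carry glucose into cells along with sodium. The cotransporter SGLT2, encoded by slc5a2, recovers glucose from the filtrate in the mammalian kidney tubule, and its relative SGLT1, encoded by slc5a1, takes up glucose in the gut and the late tubule. Both drugs are aryl C-glucosides used against type 2 diabetes. They share the glucose head and differ in the aromatic tail: empagliflozin carries a chlorinated ring and an oxolanyl ether, canagliflozin a methylated ring and a fluorophenyl-thiophene. Canagliflozin is known to be the less selective for SGLT2 over SGLT1 in mammals. At the age studied here the zebrafish embryo lives on its yolk, the heart beats, the lens and retina are differentiating and the kidney precursor, the pronephros, has formed its ducts.

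The pools held 16149682 to 27842375 reads, so that 1 read was worth 0.0363 to 0.0621 CPM and the limit that a count of 0 allows, 3 reads, was 0.109 to 0.186 CPM. This limit covers counting error only. The labelled source, the whole embryo, was borne out by markers of many tissues: of 20 heart genes listed, 17 were tested, of 35 skeletal muscle genes 29, of 50 lens genes 38, of 25 pronephros genes 18 and of 25 myeloid genes 20. Pools stood apart within 2 groups. On the first principal axis of the 12 pools, which held 41.8% of the variance, the empagliflozin pools lay between 15.6 and 18.6, canagliflozin pools 1 to 3 between -17.9 and -13.0, and canagliflozin pool 4 at 5.95. Control pools 1 to 3 lay between -17.0 and -8.92 and control pool 4 at 7.52. Over the 4234 genes called without it, canagliflozin pool 4 lay at a median of 0.57 of the way from the other canagliflozin pools (0) to the empagliflozin pools (1). Its label does not set it apart, so it stays in the comparison, and several results that rest on it are given with and without it. That choice was made after its position was seen. Where the pool lies toward empagliflozin, leaving it out enlarges the difference, so smaller p-values without it are descriptions only.

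Embryos in empagliflozin and embryos in canagliflozin differed in a large number of genes, each by a small amount. Of the 11964 genes, 3049 (25.5%) passed an adjusted p of 0.05, of which 1485 (12.4%) were higher with empagliflozin and 1564 (13.1%) lower. These shares are the background for the list counts with all pools, and fits that leave out a pool have shares of their own. Genes of the lens, the retina and differentiating neurons were among the higher ones, and genes of the ribosome, the respiratory chain, the proteasome, DNA replication and carbohydrate metabolism among the lower. The test was limma on log2(CPM + 1), with all 12 pools in 1 fit and Benjamini-Hochberg adjustment over all genes tested, and a gene past the threshold is said to be called. Differences are given throughout as log2 differences, empagliflozin minus canagliflozin, on that scale, with their 95% interval where it is printed. The scale understates the change of genes with few reads. Without canagliflozin pool 4, 4234 genes (35.4%) were called, 18.2% higher and 17.2% lower. Without canagliflozin pool 1 the number was 1932, with 931 higher and 1001 lower. Leaving out any 1 of the other treated pools gave 2128 to 2714, so the count over all genes fell in these fits as well.

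The size of a called difference had a median of 0.39 and a 90th percentile of 0.63. Differences of at least 1.5-fold were found in 408 called genes and of at least 2-fold in 42, which is 1.38% of them. Of these 42, 32 were higher with empagliflozin and 10 lower. In 3059 genes (25.6%) the 4 pools of one compound all lay above the 4 pools of the other, and 2444 of these genes were also called. The median over all genes tested was 0.01, which the TMM scaling by itself keeps near 0. The 95% interval of a gene had a median half-width of 0.22, which is the precision 4 pools gave.

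**Figure D1:**
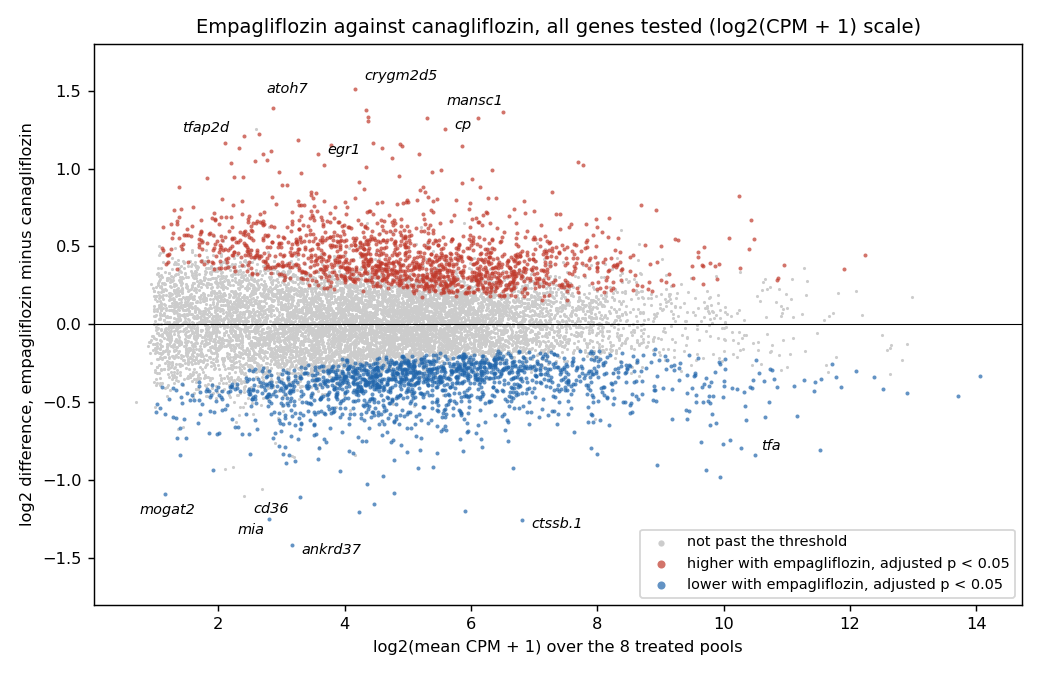
Each point is 1 of the 11964 genes tested: the horizontal axis is log2 of the mean CPM plus 1 over the 8 treated pools and the vertical axis the log2 difference, empagliflozin minus canagliflozin. Red and blue points are the 1485 genes called higher and the 1564 called lower with empagliflozin, grey points are not called, and few points lie beyond 1 on the log2 scale in either direction.

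The genes of the drug targets were scarcely read. slc5a2 measured 0, 0, 0.367 and 0.0502 CPM in the 4 empagliflozin pools (0, 0, 7 and 1 reads), 0.188, 0.0621, 0.149 and 0.0885 CPM in the canagliflozin pools (4, 1, 3 and 2 reads), and 0.292, 0.168, 0.310 and 0.0417 CPM in the controls. slc5a1 measured 0.109, 0.339, 0.105 and 0.301 CPM with empagliflozin (3, 7, 2 and 6 reads), 0.754, 0.310, 0.348 and 0.133 CPM with canagliflozin (16, 5, 7 and 3 reads) and 0.467, 0.168, 0.310 and 0.250 CPM in the controls. Both lay below the minimum of 1 CPM and were not tested, and the pools of the compounds overlapped for both genes. A difference between the compounds in either target was not detectable at this depth.

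Facilitative glucose transporters, which let glucose cross membranes without sodium, were well read. Of 11 glucose transport genes tested, 0 were called higher and 3 lower with empagliflozin, beside 12.4% and 13.1% of all genes. The median difference was -0.17. The list also holds slc5a9, which is of the family of slc5a1 and slc5a2 and is not a facilitative transporter. Unlike those targets it was well read, at 10.4 to 13.4 CPM with empagliflozin, 8.57 to 11.3 CPM with canagliflozin and 8.21 to 13.8 CPM in the controls. Its compound pools overlapped and it was not called. slc2a1a (Entrez Gene 555778), an orthologue of the transporter GLUT1, measured 30.0, 23.6, 26.1 and 24.6 CPM with empagliflozin, 33.7, 36.4, 29.6 and 31.9 CPM with canagliflozin and 21.1, 22.7, 31.1 and 27.98 CPM in the controls. The lowest canagliflozin pool lay just below the highest empagliflozin pool, so the groups overlapped, and the difference was -0.33 (-0.57 to -0.08, adjusted p = 0.0488). slc2a15b (Entrez Gene 552924), which has a part in fish pigment cells, was at 33.7 ± 3.54 CPM against 40.6 ± 3.31 CPM (SD, n = 4), a difference of -0.27 (adjusted p = 0.0335), and slc2a10 differed by -0.31 (adjusted p = 0.0405). Each of these 3 calls was lost in some fits that leave out a pool, with adjusted p-values of up to 0.134, 0.108 and 0.119. slc2a2, the orthologue of the liver and islet transporter GLUT2, was not called: its difference was -0.18 with an interval of -0.38 to 0.01. Nor were slc2a11b at 0.06 (-0.10 to 0.22), slc2a3a at -0.17 (-0.39 to 0.06), slc2a8 at -0.14 (-0.39 to 0.10) or slc2a12 at -0.14 (-0.38 to 0.10).

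Lens genes had the largest differences among genes higher with empagliflozin. Of 38 lens structural genes tested, most of them crystallins, the transparent proteins that fill lens fibre cells, 25 were called higher with empagliflozin and 0 lower, beside 12.4% and 13.1% of all genes. Their median difference was 0.53, and single members ran from -0.14 to 1.51. Without canagliflozin pool 4 the count was 27, beside 18.2% of all genes, and the median 0.54.

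crygm2d5 (Entrez Gene 558470), a gamma-M crystallin of the kind found in the hard lenses of fish, had the largest difference of all called genes. It measured 31.3, 26.9, 24.7 and 19.7 CPM with empagliflozin, 8.10, 8.38, 8.65 and 7.87 CPM with canagliflozin and 18.2, 20.4, 9.86 and 14.1 CPM in the controls. The canagliflozin pools were tightly grouped and all below the 4 empagliflozin pools. Control pool 2 lay within the empagliflozin range, and the other controls were spread between the compounds. The difference was 1.51 (1.14 to 1.88, adjusted p = 0.000158). crygm2d12 (Entrez Gene 100000256) measured 30.4, 28.9, 28.9 and 24.0 CPM with empagliflozin, 9.37, 10.6, 8.20 and 12.96 CPM with canagliflozin and 17.2, 18.9, 11.3 and 18.7 CPM in the controls, a difference of 1.38 (adjusted p = 0.000136). crygm2d8 (Entrez Gene 436854) was at 59.5, 58.4, 52.6 and 50.4 CPM, 19.9, 21.8, 21.2 and 22.9 CPM and 41.8, 39.2, 23.1 and 38.3 CPM in the same order, and crygm2d7 (Entrez Gene 566558) at 32.4, 29.9, 26.7 and 25.7 CPM, 10.3, 9.56, 11.7 and 11.6 CPM and 20.6, 21.6, 11.9 and 18.6 CPM. For both genes the 2 compounds did not overlap, and control pool 3 was the control nearest to the canagliflozin pools. Their differences were 1.32 (adjusted p = 9.69e-05) and 1.33 (adjusted p = 0.000129). crygm2d10 and crygm2d3 differed by 1.14 (adjusted p = 0.000249) and 0.95 (adjusted p = 0.000287).

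The crygm2d genes are near-identical copies that could share reads, so the value of a single copy is uncertain. They make up a large part of the lens list, so its 25 called members are not separate measurements. A count without these copies was not made. Other lens proteins had smaller differences of the same direction: alpha-crystallin cryaa was at 0.63 (adjusted p = 0.0971), beta-crystallin cryba1a at 0.64 (adjusted p = 0.0103) and the lens filament gene bfsp2 at 0.57 (adjusted p = 0.0137). These 3 genes were picked after their values were seen. Over the whole list the empagliflozin pools were a median of 0.20 above the controls and the canagliflozin pools -0.36 relative to the controls. For 7 of the 25 called members the control mean was nearer to canagliflozin, so for the others it was nearer to empagliflozin, unlike the bulk of called genes described further on. In RNA from whole embryos, fewer cells of a type and less RNA per cell cannot be told apart, here and for every tissue that follows.

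**Figure D2:**
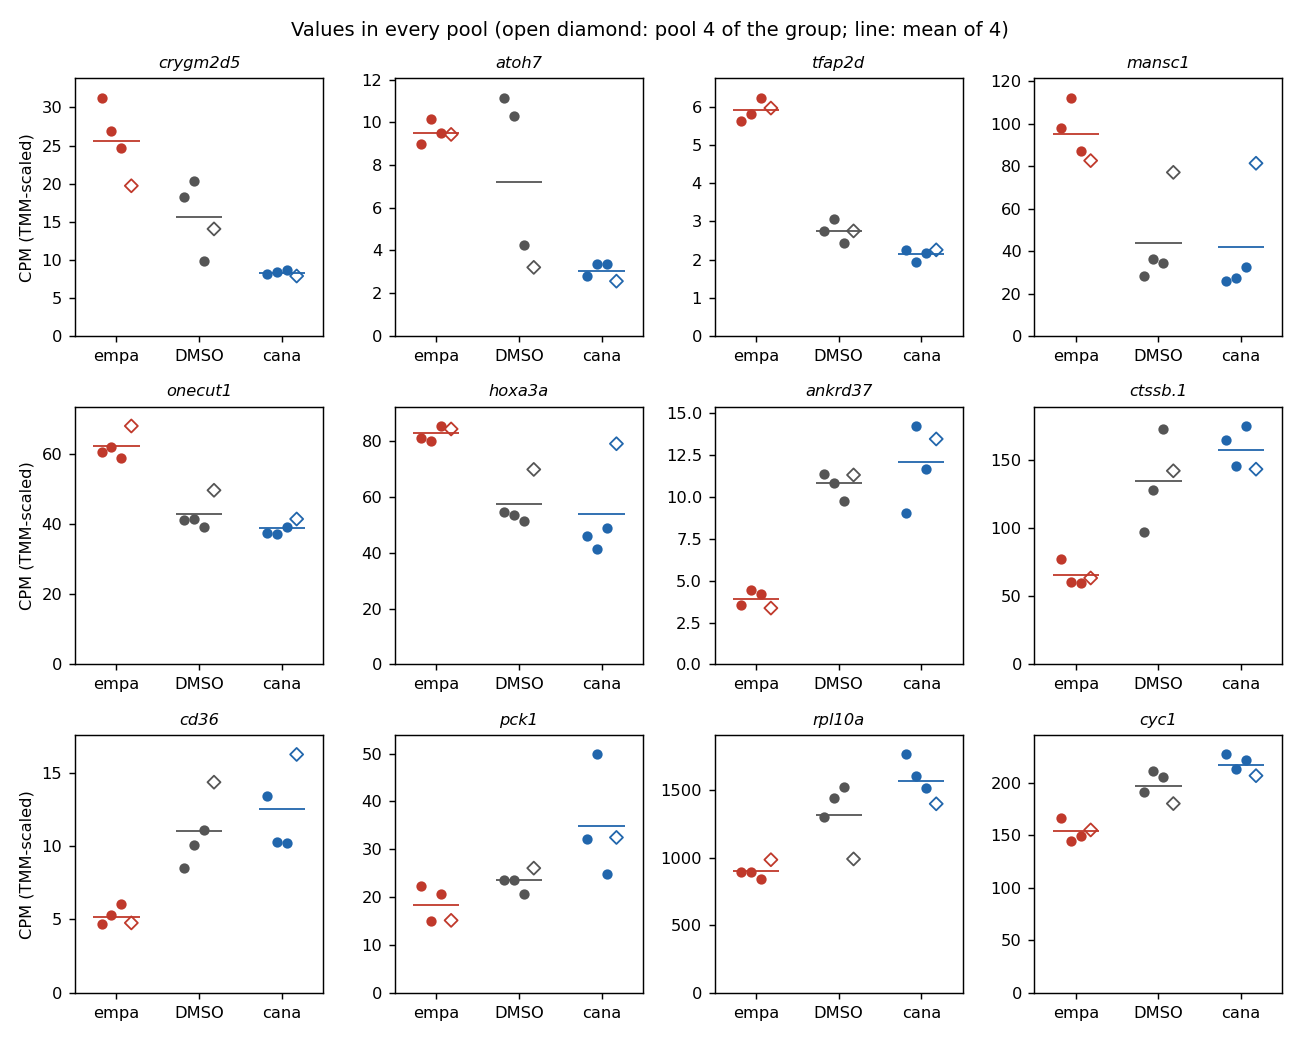
TMM-scaled CPM of 12 genes in every pool, with empagliflozin in red, DMSO controls in grey and canagliflozin in blue. The line is the mean of 4 pools and the open diamond is pool 4 of its group, which in mansc1 and hoxa3a lies toward the empagliflozin pools in both other groups.

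Several regulators of the retina were also called higher with empagliflozin. Of 33 genes of eye development tested, most of them transcription factors, 11 were called higher and 4 lower, with a median of 0.20. atoh7 (Entrez Gene 58216), the proneural factor that zebrafish need to make retinal ganglion cells, measured 8.97, 10.1, 9.501 and 9.43 CPM with empagliflozin and 2.83, 3.35, 3.38 and 2.57 CPM with canagliflozin. The controls were split, with 11.2, 10.3, 4.23 and 3.21 CPM: pools 1 and 2 lay with empagliflozin, pools 3 and 4 with canagliflozin. The difference between the compounds was 1.39 (0.84 to 1.94, adjusted p = 0.00203). crx (Entrez Gene 81881), a homeobox factor of photoreceptors, measured 6.32, 7.03, 4.62 and 7.93 CPM with empagliflozin, 1.84, 2.30, 1.89 and 2.79 CPM with canagliflozin and 3.45, 3.35, 2.48 and 3.63 CPM in the controls, a difference of 1.21 (0.89 to 1.53, adjusted p = 0.000249). tfap2d (Entrez Gene 566838), an AP-2 family factor, measured 5.63, 5.82, 6.25 and 5.97 CPM with empagliflozin, 2.26, 1.93, 2.19 and 2.26 CPM with canagliflozin and 2.75, 3.06, 2.43 and 2.75 CPM in the controls. Every tfap2d value of the empagliflozin group lay above every value of the other groups, and the difference was 1.13 (0.92 to 1.35, adjusted p = 4.28e-05).

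The paired-box gene pax6b (Entrez Gene 60639), one of 2 zebrafish copies of the eye regulator PAX6, measured 45.2, 45.6, 48.0 and 46.5 CPM with empagliflozin, 27.98, 29.8, 28.03 and 31.2 CPM with canagliflozin and 27.7, 29.3, 28.1 and 38.6 CPM in the controls. Control pool 4 lay between the groups and the other controls with canagliflozin, and the difference was 0.65 (adjusted p = 0.000468). pax6a differed by 0.49 (adjusted p = 0.00254), the eye-field gene lhx2b by 0.53 (adjusted p = 0.000830) and prox1a, a factor of lens fibres, retina and liver, by 0.26 (adjusted p = 0.00675). Among the lower ones was aldh1a2, an enzyme that makes retinoic acid, at -0.40 (adjusted p = 0.00402). foxe3, which keeps the lens epithelium in its undifferentiated state, went the other way at -0.61 (-0.85 to -0.37, adjusted p = 0.00195), with 3.73 ± 0.317 CPM with empagliflozin, 6.21 ± 0.253 CPM with canagliflozin and 4.42 ± 0.793 CPM in the controls (SD, n = 4).

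Genes of differentiating neurons were called higher with empagliflozin far more often than lower, while genes of neural progenitors were divided. Of 40 neuronal genes tested, 17 were called higher and 1 lower (median 0.23), and in 17 of these 18 the control mean was nearer to canagliflozin. onecut1 (Entrez Gene 393545), a cut-homeobox factor of neurons and liver, measured 60.4, 61.9, 58.8 and 67.9 CPM with empagliflozin, 37.4, 37.3, 39.2 and 41.4 CPM with canagliflozin and 41.1, 41.3, 39.1 and 49.6 CPM in the controls. The lowest empagliflozin pool lay above the highest pool of either other group, and the difference was 0.67 (0.50 to 0.83, adjusted p = 0.000193). vamp2 (Entrez Gene 336281), a synaptic vesicle fusion protein, measured 19.4, 22.7, 24.2 and 27.04 CPM, 14.5, 14.6, 14.0 and 15.3 CPM and 15.01, 14.9, 17.4 and 17.8 CPM in the same order and differed by 0.63 (adjusted p = 0.000706). elavl3 (Entrez Gene 30732), the RNA-binding protein used as a general marker of neurons, was read deeply: 279, 282, 274 and 301 CPM with empagliflozin, 212, 227, 234 and 220.5 CPM with canagliflozin and 222, 217, 208 and 231 CPM in the controls. The 2 compounds did not overlap, and the difference of 0.34 (0.22 to 0.47, adjusted p = 0.00138) was small beside those of the lens. elavl4, stmn1b (a microtubule regulator of growing neurons) and the LIM homeobox gene lhx9 differed by 0.48, 0.45 and 0.49 (adjusted p = 0.00183, 0.00136 and 0.00351).

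Among 33 genes of progenitors and glia, 5 were called higher and 8 lower with empagliflozin, with a median of 0.08. Leaving out 1 pool gave 3 to 8 higher (8 without control pool 4, 3 without empagliflozin pool 2, 3 or 4) and 5 to 8 lower (5 without empagliflozin pool 1, 2 or 3 or canagliflozin pool 1 or 2). Over all genes the fits named called 1033 to 1730 higher and 1001 to 1235 lower, from 1485 and 1564 with all pools. olig2 (Entrez Gene 325288), a factor of motor neuron and oligodendrocyte precursors, measured 17.8, 16.5, 16.5 and 19.3 CPM with empagliflozin, 28.2, 25.2, 27.03 and 26.3 CPM with canagliflozin and 20.4, 22.8, 21.8 and 20.2 CPM in the controls. The controls lay between the compounds without touching either, and the difference was -0.58 (-0.74 to -0.42, adjusted p = 0.000320). neurog1 (Entrez Gene 30239), a proneural factor, measured 54.8, 46.5, 52.8 and 57.3 CPM with empagliflozin, 68.6, 65.5, 68.6 and 89.1 CPM with canagliflozin and 46.6, 54.5, 51.4 and 58.0 CPM in the controls. Here the controls lay with empagliflozin and canagliflozin was the group apart, and the difference was -0.45 (adjusted p = 0.00521). her9, a repressor of the Hairy family, was lower at -0.44 (adjusted p = 0.00508), whereas the receptor notch1b and the radial glia gene fabp7a were higher at 0.40 and 0.49 (adjusted p = 0.00361 and 0.00611).

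Hox genes, which give cells their place along the body axis, were called higher with empagliflozin in a number that depended on the pools included. Of 48 tested, 13 were called higher and 1 lower, with a median of 0.12. When canagliflozin pool 4 was left out, 20 were higher and 0 lower (median 0.24), beside 18.2% and 17.2% of all genes. The number called higher was 7 without canagliflozin pool 1 or 2 and 8 without canagliflozin pool 3 or empagliflozin pool 4. Over all genes the number called higher moved the same way. It went from 1485 to 2175 without canagliflozin pool 4 and to 931 without canagliflozin pool 1. hoxa3a (Entrez Gene 58049) showed the split: it measured 81.1, 80.1, 85.4 and 84.3 CPM with empagliflozin, 45.9, 41.5, 48.8 and 79.0 CPM with canagliflozin and 54.7, 53.7, 51.5 and 69.8 CPM in the controls. Canagliflozin pool 4 lay just under the lowest empagliflozin pool, control pool 4 lay above the other controls, and the difference was 0.66 (adjusted p = 0.00616) with the pool and 0.85 (adjusted p = 8.18e-05) without it. hoxc1a (Entrez Gene 58046) showed no such split, with 22.3, 25.1, 29.6 and 21.97 CPM, 16.6, 16.3, 16.0 and 16.9 CPM and 22.7, 19.0, 17.9 and 19.4 CPM in the same order, and differed by 0.55 (adjusted p = 0.00157). hoxd3a, hoxb5a and hoxc8a differed by 0.54, 0.52 and 0.39 (adjusted p = 0.00990, 0.00920 and 0.0121).

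Ribosomal protein genes had the lowest median of the 42 lists. Of 76 genes for proteins of the cytosolic ribosome, 50 were called lower with empagliflozin and 1 higher, beside 13.1% and 12.4% of all genes, and the median difference was -0.36. The fits that leave out a pool called 41 to 51 of them lower. rpl10a (Entrez Gene 323305), of the large subunit, measured 895, 897, 842 and 986 CPM with empagliflozin, 1765, 1605, 1518 and 1399.8 CPM with canagliflozin and 1299, 1446, 1523 and 992 CPM in the controls. Control pool 4 lay just above the highest empagliflozin pool, and the other controls lay higher. rpl10 (Entrez Gene 336712), also of the large subunit, measured 828, 819, 780.1 and 847 CPM, 1555, 1377, 1335 and 1220.4 CPM and 1055, 1196, 1206 and 894 CPM in the same order. Their differences were -0.79 (adjusted p = 0.000549) and -0.74 (adjusted p = 0.000310), and in neither gene did the 2 compounds overlap. rpl17, rpl8 and rps16 differed by -0.63, -0.59 and -0.55 (adjusted p = 0.000468, 0.000398 and 0.000468). The member called higher was rps15a at 0.67 (adjusted p = 0.0121), named after its value was seen. Over the list, empagliflozin was a median of -0.21 relative to the controls and canagliflozin 0.12.

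Nuclear genes of the mitochondrial respiratory chain, which passes electrons to oxygen and drives ATP synthesis, were mostly called lower with empagliflozin. In complex I, the NADH dehydrogenase, 19 of 34 subunits tested were called lower and 1 higher (median -0.27). In complexes II to V, 24 of 40 were called lower and 0 higher (median -0.33). The member of complex I called higher was ndufb7 at 0.26 (adjusted p = 0.0211), named after its value was seen. Leaving out canagliflozin pool 4 gave 6 members of complex I called higher and 21 lower, beside 18.2% and 17.2% of all genes. cyc1 (Entrez Gene 564379), cytochrome c1 of complex III, measured 167, 145, 149 and 155 CPM with empagliflozin, 227, 213, 222 and 207 CPM with canagliflozin and 191, 211, 205 and 180.3 CPM in the controls. The 4 controls lay above the empagliflozin pools and overlapped with canagliflozin, and the difference was -0.49 (-0.64 to -0.35, adjusted p = 0.000398). ndufa9a (Entrez Gene 541331), of complex I, measured 58.4, 53.0, 54.6 and 65.3 CPM, 91.7, 93.4, 90.2 and 83.4 CPM and 79.3, 86.6, 85.2 and 62.4 CPM in the same order and differed by -0.63 (adjusted p = 0.000693). cox7c (Entrez Gene 336118), a small subunit of cytochrome oxidase, measured 37.8, 48.4, 38.6 and 40.9 CPM, 85.8, 72.7, 65.4 and 56.8 CPM and 55.5, 60.8, 67.4 and 47.5 CPM and differed by -0.74 (adjusted p = 0.00114).

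Further subunits had like values: sdhc of complex II was at -0.68 (adjusted p = 0.00157), uqcrfs1, the iron-sulfur protein of complex III, at -0.58 (adjusted p = 0.00183), ndufb6 at -0.57 (adjusted p = 0.000555) and atp5g3b, a ring subunit of ATP synthase, at -0.50 (adjusted p = 0.00155). minos1, a protein that shapes the inner membrane, had the largest difference of the mitochondrial genes named here, -1.03 (-1.41 to -0.64, adjusted p = 0.00142), from 26.7 ± 6.79 CPM with canagliflozin to 12.3 ± 1.195 CPM with empagliflozin (SD, n = 4). Enzymes of the TCA cycle were called lower in 6 of 20 and higher in 0. Among them were malate dehydrogenase mdh1aa at -0.42 (adjusted p = 0.00149), fumarase fh at -0.29 (adjusted p = 0.00494) and citrate synthase cs at -0.26 (adjusted p = 0.00659). Of 19 genes of fatty acid oxidation, 4 (21.1%) were lower and 2 (10.5%) higher, beside 13.1% and 12.4% of all genes. As few as 1 were lower when a pool was left out.

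Proteasome subunits, the parts of the protease that breaks down ubiquitin-marked proteins, were called lower in 18 of 34 and higher in 0, with a median of -0.18. Without canagliflozin pool 1, 11 were called lower, while over all genes the number called lower went from 1564 to 1001. psma1 (Entrez Gene 445033), of the outer ring, measured 79.9, 78.4, 64.6 and 76.5 CPM with empagliflozin, 118, 116.8, 118 and 110.2 CPM with canagliflozin and 91.0, 106, 105 and 83.8 CPM in the controls. All controls lay in the gap between the compounds, and the difference was -0.63 (-0.81 to -0.45, adjusted p = 0.000386). psmb7, a catalytic subunit, differed by -0.55 (adjusted p = 0.000443) and psma6a by -0.40 (adjusted p = 0.00183). Among 28 chaperones and heat shock genes, 6 were lower and 3 higher; the subunits cct4 and cct5 of the chaperonin that folds actin and tubulin were both at -0.45 (adjusted p = 0.000420 and 0.00269).

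Genes of DNA replication and mitosis were more often lower than higher with empagliflozin. Of 43 replication genes, 19 were called lower and 3 higher (median -0.18), and of 35 mitosis genes 10 were lower and 1 higher (median -0.11). pcna (Entrez Gene 30678), the sliding clamp of DNA polymerase, measured 785, 769.6, 746 and 760.5 CPM with empagliflozin, 1120.3, 1080.3, 1047 and 961 CPM with canagliflozin and 916, 986, 945 and 846 CPM in the controls, and differed by -0.46 (-0.61 to -0.31, adjusted p = 0.000693). The kinase plk1 (Entrez Gene 280649) measured 228, 233, 223 and 225 CPM, 307, 295, 314 and 293 CPM and 253, 281, 267 and 249 CPM in the same order and differed by -0.41 (adjusted p = 0.000468). aurkb (Entrez Gene 791894), the kinase of the chromosomal passenger complex, measured 58.9, 58.8, 54.8 and 53.4 CPM, 95.01, 82.5, 83.4 and 72.6 CPM and 70.0, 78.5, 73.1 and 64.0 CPM and differed by -0.55 (adjusted p = 0.000674). In all 3 genes the compounds did not overlap.

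Larger differences were carried by rpa3 and pttg1, in which pool 4 lay low in both other groups. rpa3 (Entrez Gene 393196), a subunit of the protein that coats single-stranded DNA, measured 17.1, 15.9, 17.1 and 14.8 CPM with empagliflozin, 47.2, 40.1, 40.7 and 20.1 CPM with canagliflozin and 38.3, 36.6, 36.7 and 19.3 CPM in the controls. Its difference was -1.082 (adjusted p = 0.00402) with canagliflozin pool 4 and -1.34 (adjusted p = 0.000128) without it. pttg1 (Entrez Gene 100307086), the securin that holds sister chromatids together, measured 8.93, 10.96, 8.77 and 8.73 CPM, 23.2, 19.4, 21.6 and 12.7 CPM and 17.9, 20.2, 18.3 and 9.72 CPM in the same order, and differed by -0.94 (adjusted p = 0.00401). anapc16, a subunit of the anaphase-promoting complex, was at -1.16 (-1.49 to -0.82, adjusted p = 0.000398), and gins2, rfc2, orc6 and mcm3, which load or move the replication fork, were at -0.49, -0.47, -0.55 and -0.34 (adjusted p = 0.000675, 0.00107, 0.00152 and 0.00157). The mitotic cyclins ccnb1 and ccnb2 differed by -0.39 and -0.45 (adjusted p = 0.000808 and 0.00285), and the spindle checkpoint gene mad2l1 by -0.50 (adjusted p = 0.00303).

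**Figure D3:**
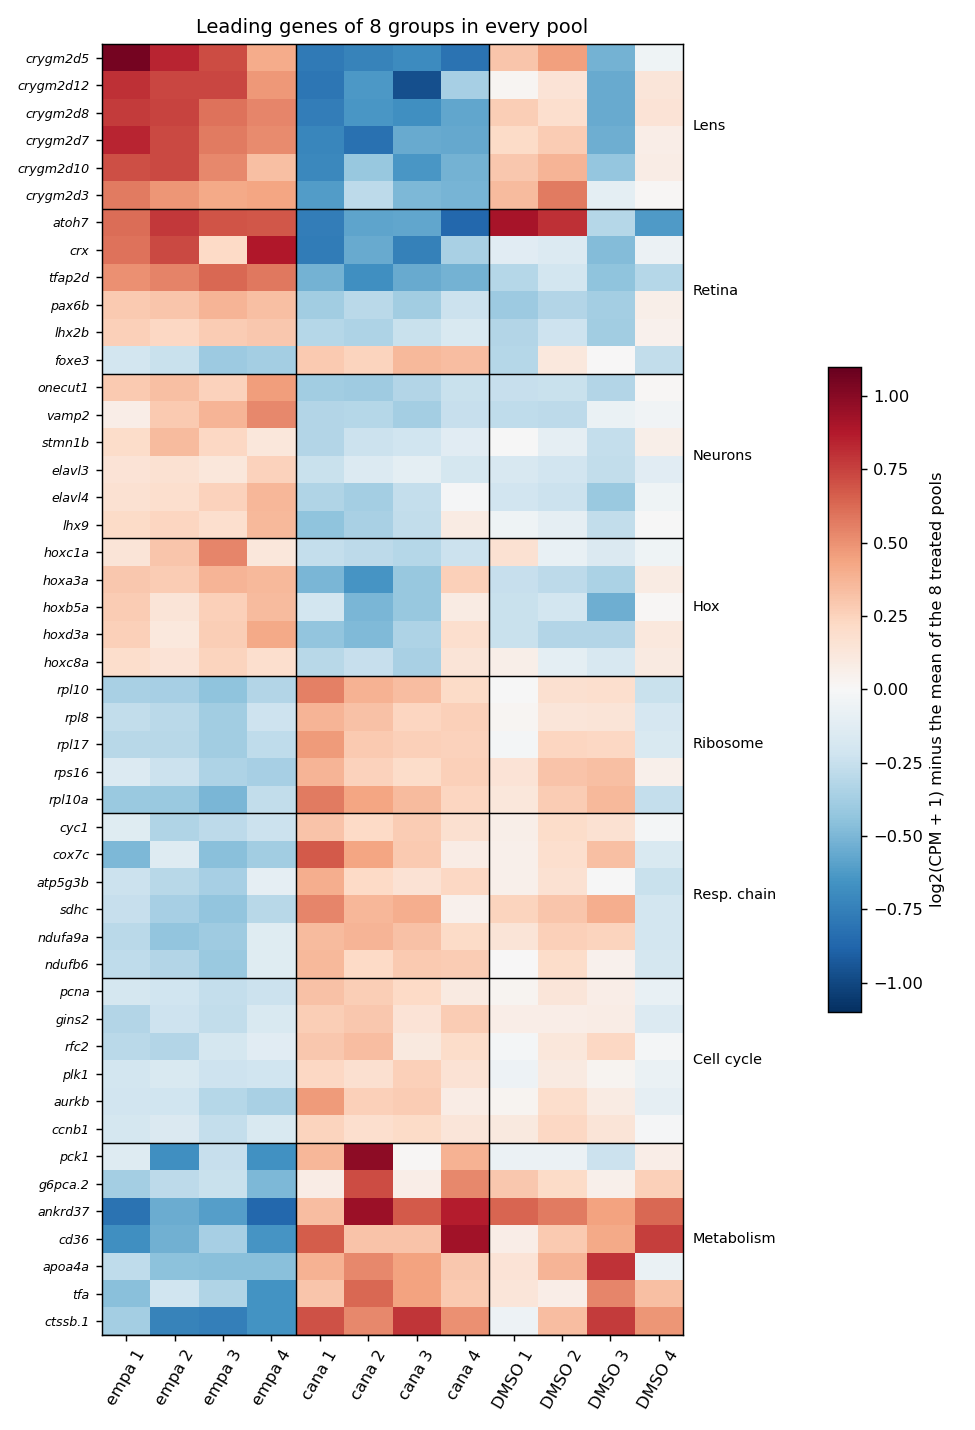
Leading genes of 8 groups (rows) in the 12 pools (columns); colour is log2(CPM + 1) minus the gene's mean over the 8 treated pools, red for higher and blue for lower. The 4 empagliflozin columns have the opposite colour to canagliflozin columns 1 to 3 in nearly every row, and canagliflozin column 4 turns to red in the hox genes shown except hoxc1a. The controls lie between the compounds in some rows, and within or beyond the range of 1 compound in others.

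Some carbohydrate enzymes were called lower with empagliflozin, at several steps. Of 27 glycolytic genes, 10 were called lower and 3 higher (median -0.17), and of 19 genes of gluconeogenesis or of the response to glucose, 5 were lower and 2 higher (median -0.14). Without empagliflozin pool 3 or canagliflozin pool 3, 6 glycolytic genes were called lower. Over all genes those fits called 1128 and 1124 lower, from 1564 with all pools. pck1 (Entrez Gene 378727), the enzyme that commits carbon to gluconeogenesis, measured 22.2, 15.08, 20.6 and 15.15 CPM with empagliflozin, 32.1, 49.8, 24.8 and 32.5 CPM with canagliflozin and 23.6, 23.5, 20.8 and 26.1 CPM in the controls. Canagliflozin pool 2 was the highest, no canagliflozin pool lay below an empagliflozin pool, and the difference was -0.87 (-1.23 to -0.51, adjusted p = 0.00255), and the control mean lay at 0.58 of the way from canagliflozin (0) to empagliflozin (1).

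g6pca.2 (Entrez Gene 563180), a glucose-6-phosphatase that releases free glucose, measured 48.9, 52.1, 53.6 and 44.9 CPM with empagliflozin, 67.3, 105, 67.3 and 92.5 CPM with canagliflozin and 78.6, 73.8, 66.5 and 76.4 CPM in the controls. All controls lay above all empagliflozin pools, and the difference between the compounds was -0.70 (adjusted p = 0.00145). Its neighbour in name, g6pca.1, was at -0.83 (adjusted p = 0.0117) and the mitochondrial form pck2 at -0.40 (adjusted p = 0.000797). The glycolytic genes gpia, aldoab, tpi1b and aldocb were at -0.47, -0.42, -0.36 and -0.34 (adjusted p = 0.00285, 0.00560, 0.00560 and 0.00434). tpi1a, the other copy of triosephosphate isomerase, went the other way at 0.61 (adjusted p = 0.00179), from 6.69 ± 0.943 CPM with canagliflozin to 10.7 ± 0.739 CPM with empagliflozin (SD, n = 4). The calls of eno1a (-0.35), fbp1b (-0.32) and pcxa (0.42) were each lost in at least 1 fit that leaves out a pool, with adjusted p-values of up to 0.0543, 0.0672 and 0.0512.

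The gene with the largest lower difference was ankrd37, an ankyrin-repeat gene that hypoxia-inducible factor switches on. ankrd37 (Entrez Gene 793783) measured 3.52, 4.41, 4.1995 and 3.36 CPM with empagliflozin, 9.04, 14.2, 11.7 and 13.4 CPM with canagliflozin and 11.3, 10.8, 9.76 and 11.3 CPM in the controls. The empagliflozin pools stood alone, below all 8 others, and the difference was -1.41 (-1.68 to -1.15, adjusted p = 4.28e-05), with the control at 0.10 of the way from canagliflozin to empagliflozin. Of 23 hypoxia-inducible genes, 7 were called lower and 2 higher, with a median of -0.16, and 4 were called lower without empagliflozin pool 2 or 4 or canagliflozin pool 2 or 3. Over all genes those fits called 1099 to 1381 lower, from 1564 with all pools. ddit4 (Entrez Gene 378866), an inhibitor of the growth kinase mTORC1, measured 19.6, 18.5, 20.6 and 23.1 CPM with empagliflozin, 24.3, 38.5, 35.1 and 49.3 CPM with canagliflozin and 30.0, 19.9, 24.9 and 38.8 CPM in the controls, and differed by -0.78 (-1.18 to -0.37, adjusted p = 0.00912). Its canagliflozin pools were widely spread. The oxidase ero1a, at about 1 CPM, and the mitophagy receptor bnip3lb were at -0.56 and -0.35 (adjusted p = 0.00864 and 0.0130). The members called higher were mxi1 at 0.33 and hif1ab, which encodes a subunit of the factor itself, at 0.36 (adjusted p = 0.0180 and 0.0233), and both calls were lost in some fits that leave out a pool.

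Genes of lipid transport and of plasma proteins, which at this stage are made largely in the yolk syncytial layer that feeds the embryo, gave several of the larger differences. Of 17 genes of lipoproteins and lipid uptake, 5 were called lower with empagliflozin and 1 higher. The higher one was fabp7a, the radial glia gene already counted among progenitors and glia. cd36 (Entrez Gene 436636), a fatty acid receptor, measured 4.68, 5.29, 6.04 and 4.77 CPM with empagliflozin, 13.4, 10.25, 10.24 and 16.2 CPM with canagliflozin and 8.53, 10.1, 11.1 and 14.3 CPM in the controls, a difference of -1.11 (-1.44 to -0.78, adjusted p = 0.000443). No canagliflozin or control pool was as low as the highest empagliflozin pool. apoa4a (Entrez Gene 550608), an apolipoprotein, measured 34.0, 30.0, 29.8 and 29.9 CPM, 54.4, 60.1, 56.8 and 51.0 CPM and 46.2, 54.0, 72.5 and 39.4 CPM in the same order, and differed by -0.83 (adjusted p = 0.000876). apoa4b.1 was at -0.58 (adjusted p = 0.00109) and mtp, the transfer protein that loads lipoproteins, at -0.64 (adjusted p = 0.00157). mogat2 (Entrez Gene 450063), an enzyme of triglyceride synthesis, was near the minimum level, with 0.581, 0.388, 0.420 and 0.301 CPM, 2.26, 2.30, 1.59 and 1.99 CPM and 1.05, 0.796, 2.07 and 0.792 CPM, and differed by -1.09 (adjusted p = 0.000693). It passed the minimum of 1 CPM only through its canagliflozin pools, the group where it was highest, so its call is a description only. Of 22 genes of sterol synthesis and its regulators, 2 (9.09%) were lower, insig1 among them at -0.83 (adjusted p = 0.00211), and 0 higher. Both shares lay below the 13.1% and 12.4% of all genes, and the median of this list was -0.05.

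Of 17 genes of plasma proteins and early liver, 4 were lower and 3 higher. tfa (Entrez Gene 30255), transferrin, the iron carrier, measured 999, 1180.2, 1098 and 871 CPM with empagliflozin, 1706, 2139.8, 1874 and 1679 CPM with canagliflozin and 1512, 1447, 2002 and 1729 CPM in the controls, and differed by -0.84 (-1.09 to -0.59, adjusted p = 0.000443). serpina1l, of the antitrypsin family, and a2ml, of the alpha-2-macroglobulin family, were at -0.61 and -0.49 (adjusted p = 0.000555 and 0.00638). cp (Entrez Gene 84702), ceruloplasmin, the copper-binding ferroxidase, went the other way but with wide spread: 74.95, 90.7, 35.2 and 61.8 CPM with empagliflozin, 13.7, 17.1, 35.7 and 48.7 CPM with canagliflozin and 26.8, 72.1, 40.8 and 47.7 CPM in the controls. The groups overlapped, and the difference of 1.26 (0.48 to 2.03, adjusted p = 0.0205) lost its call without canagliflozin pool 1 (adjusted p = 0.0746). vitronectin vtna was at 0.42 (adjusted p = 0.0228) and also lost its call there (adjusted p = 0.0814).

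In the lysosome, 6 of 27 genes (22.2%) were called lower with empagliflozin and 1 (3.7%) higher, beside 13.1% and 12.4% of all genes. ctssb.1, a cathepsin S, measured 77.8, 60.5, 59.7 and 63.6 CPM with empagliflozin, 165, 146, 175 and 144 CPM with canagliflozin and 97.1, 128, 173 and 142 CPM in the controls. The compounds were more than 2-fold apart, every control lay above the empagliflozin group, and the difference was -1.26 (-1.55 to -0.97, adjusted p = 0.000129). The cholesterol carrier npc2, the saposin precursor psap and cathepsin B, ctsba, were at -0.47, -0.42 and -0.46 (adjusted p = 0.000540, 0.00255 and 0.00315). In the myeloid list, cells rich in such enzymes, 3 of 20 (15%) were called lower, near the 13.1% of all genes, and 0 higher (median -0.19). lcp1 and coro1a, which bind actin in leukocytes, were at -0.56 and -0.34 (adjusted p = 0.00292 and 0.00920). fcer1gl was at -0.49 (adjusted p = 0.0446, up to 0.134 with a pool left out). The part of these cells in the lysosome result was not tested.

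Targets of the stress factor Atf4 and of the unfolded protein response were more often called lower than higher. Of 29 tested, 8 (27.6%) were called lower with empagliflozin and 1 (3.45%) higher, with a median of -0.06. Over all genes the shares were 13.1% and 12.4%. atf4a (Entrez Gene 406514), the transcription factor at the centre of that response, measured 277, 265, 281 and 354 CPM with empagliflozin, 458, 436, 415 and 431 CPM with canagliflozin and 345, 388, 415 and 319.8 CPM in the controls. The groups of the compounds did not overlap, and the difference was -0.57 (-0.77 to -0.37, adjusted p = 0.00109). The amino acid transporter chain slc3a2a, the serine synthesis enzyme phgdh and sesn3 were at -0.57, -0.56 and -0.26 (adjusted p = 0.00104, 0.00515 and 0.0102). Among 32 immediate-early genes, 2 (6.25%) were higher and 3 (9.38%) lower, both below the shares over all genes, with a median of 0.05. egr1 (Entrez Gene 30498), a zinc-finger factor switched on within minutes of a stimulus, measured 11.4, 14.99, 20.53 and 14.4 CPM with empagliflozin, 5.28, 7.51, 5.37 and 8.32 CPM with canagliflozin and 7.07, 6.45, 8.83 and 8.51 CPM in the controls, and differed by 1.096 (0.74 to 1.45, adjusted p = 0.000640), while jun was at -0.37 and the phosphatase dusp1 at -0.42 (adjusted p = 0.00665 and 0.00285). btg2 was called at 0.42 (adjusted p = 0.0490), a call that did not hold when a pool was left out (adjusted p up to 0.143).

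Genes that handle foreign compounds are often switched on by drugs. Of 25 tested, 4 (16%) were called lower and 1 (4%) higher, beside 13.1% and 12.4% of all genes, with a median of -0.04. The member called higher was ahr2, the zebrafish dioxin receptor, at 0.36 (adjusted p = 0.00469), and the lower ones included the efflux pump abcc2 at -0.54 (adjusted p = 0.0122) and gclm, of glutathione synthesis, at -0.43 (adjusted p = 0.00157). Insulin and IGF genes were called in 3 of 16 as higher and 1 as lower: the binding proteins igfbp7, igfbp5a and igfbp2a were at 0.80, 0.37 and -0.50 (adjusted p = 0.00892, 0.0256 and 0.00164), and igfbp5a lost its call with a pool left out (adjusted p up to 0.0602). Sodium-proton exchangers are discussed as off-targets of this drug class in heart muscle, and 0 of the 8 tested were called, with differences of -0.24 to 0.07. In the whole list of 24 genes of sodium-proton exchange and cardiac ion handling, 3 (12.5%) were called higher and 2 (8.33%) lower. Among them were phospholamban pln at 0.71 (adjusted p = 0.00482) and the kinase camk2d2 at 0.52 (adjusted p = 0.00200). Of 20 clock genes, 4 were higher, per3 at 0.43 among them (adjusted p = 0.00255), and 3 lower.

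Several of the largest differences belonged to none of the groups described so far. tnnt2e (Entrez Gene 556703), a troponin T, measured 28.9, 27.11, 30.3 and 27.4 CPM with empagliflozin, 8.57, 10.7, 11.5 and 13.2 CPM with canagliflozin and 24.4, 22.4, 10.9 and 15.4 CPM in the controls. Control pools 1 and 2 lay nearer to empagliflozin and pools 3 and 4 nearer to canagliflozin, and the difference was 1.31 (0.91 to 1.70, adjusted p = 0.000468). atxn1a (Entrez Gene 557340), an ataxin, measured 11.3, 11.5, 13.02 and 13.3 CPM, 4.29, 5.53, 4.62 and 4.998 CPM and 4.97, 6.28, 4.70 and 8.67 CPM in the same order and differed by 1.18 (adjusted p = 0.000225). mia (Entrez Gene 569807), a small secreted protein of cartilage, measured 2.65, 4.41, 2.47 and 3.21 CPM, 9.70, 7.64, 7.80 and 10.3 CPM and 7.42, 6.45, 10.5 and 7.13 CPM and differed by -1.25 (-1.59 to -0.91, adjusted p = 0.000287). In both genes the control mean lay nearer to canagliflozin.

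In mansc1 and and3, canagliflozin pool 4 lay far from the other canagliflozin pools. mansc1 (Entrez Gene 100009658), a membrane protein gene, measured 98.2, 112, 87.2 and 82.6 CPM with empagliflozin, 25.8, 27.3, 32.5 and 81.4 CPM with canagliflozin and 28.2, 36.4, 34.2 and 77.1 CPM in the controls. Pool 4 of both other groups lay close to the empagliflozin range, and the difference was 1.33 (adjusted p = 0.00751) with canagliflozin pool 4 and 1.70 (adjusted p = 0.000164) without it. and3 (Entrez Gene 561047), an actinodin of the fin fold, measured 109, 101, 81.2 and 125 CPM, 35.0, 44.7, 45.1 and 96.8 CPM and 48.1, 56.0, 37.4 and 68.0 CPM in the same order, and differed by 0.99 (adjusted p = 0.00899) with the pool and 1.29 (adjusted p = 0.000128) without it.

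The 13 lists drawn up as cell type lists had 10% (vessels) to 38.9% (pronephros and notochord) of members called in either direction, beside 25.5% of all genes. Of the tissue lists described earlier, lens, retina and differentiating neurons had 65.8%, 45.5% and 45%. The list of plasma proteins and early liver had 41.2%, and that of neural progenitors and glia 39.4%. The lens share includes the crygm2d copies that could share reads. By direction the background was 12.4% higher and 13.1% lower. Of 17 heart genes, 1 was called higher, the factor gata4 at 0.55 (adjusted p = 0.00520), and 1 lower, the myosin light chain myl7 at -0.42 (adjusted p = 0.00114). Blood genes were called in 1 of 16 as higher (epb41b, 0.65, adjusted p = 0.00303) and 1 as lower (urod, -0.54, adjusted p = 0.00434). Vessel genes were called in 1 of 20 as higher (notch1b, already counted among progenitors and glia) and 1 as lower. Skeletal muscle had 5 higher and 3 lower of 29, with the troponins tnnt3b, tnnt2d and tnnt3a at 0.83, 0.79 and 0.55 (adjusted p = 0.00210, 0.000544 and 0.00519).

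In the pronephros, the embryonic kidney, 5 of 18 genes were called lower and 2 higher. The lower ones included the sodium pump atp1a1a.4 at -0.75 (-0.97 to -0.52, adjusted p = 0.000472), the anion exchanger slc26a1 at -0.56 (adjusted p = 0.000710), the sodium-chloride cotransporter slc12a3 at -0.56 (adjusted p = 0.00550) and the cadherin cdh17 at -0.36 (adjusted p = 0.00255). lhx1a, an early kidney factor also made in neurons, was higher at 0.43 (adjusted p = 0.00638). Endoderm and pancreas had 4 higher and 0 lower of 20, among them mnx1 at 0.58 (adjusted p = 0.0109), while the calls of the hormone gene gcga (0.51) and of ptf1a (0.57) were lost in fits that leave out a pool (adjusted p up to 0.0725 and 0.0540). In the notochord and floor plate list 3 were higher and 4 lower of 18, with sox5, sox6 and the collagen gene col9a2 at 0.68, 0.60 and 0.40 (adjusted p = 0.000193, 0.000629 and 0.00726) and the matrix gene ctgfa at -0.58 (adjusted p = 0.0102). In the fin fold and cartilage list 4 were higher and 2 lower of 19, with and3 and mia, described above, among them. sox9b, which patterns cartilage, was at 0.62 (adjusted p = 0.0119). Hatching gland genes were called in 1 and 1 of 6, the latter being the hatching enzyme he2 at -0.92 (adjusted p = 0.00141).

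The remaining lists had called members in both directions or few of them. Epidermis and ionocytes had 4 higher and 6 lower of 28, the skin claudin cldni at -0.46 among the latter (adjusted p = 0.00431). The number lower was 2 without canagliflozin pool 1 and 3 without canagliflozin pool 3 or empagliflozin pool 2 or 3. Over all genes those fits called 1001 to 1155 lower, from 1564 with all pools. Pigment and neural crest genes had 0 higher and 3 lower of 19, with the purine synthesis gene paics at -0.55 (adjusted p = 0.000613). The ear and placode list had 5 higher and 3 lower of 21, with 9 higher without canagliflozin pool 4 and 1 or 2 without any other single treated pool. Over all genes, 18.2% were called higher without canagliflozin pool 4. The number called higher over all genes was 1485 with all pools and 931 to 1333 without any other single treated pool. In the segmentation clock and tailbud list 1 was higher and 4 lower of 21.

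**Figure D4:**
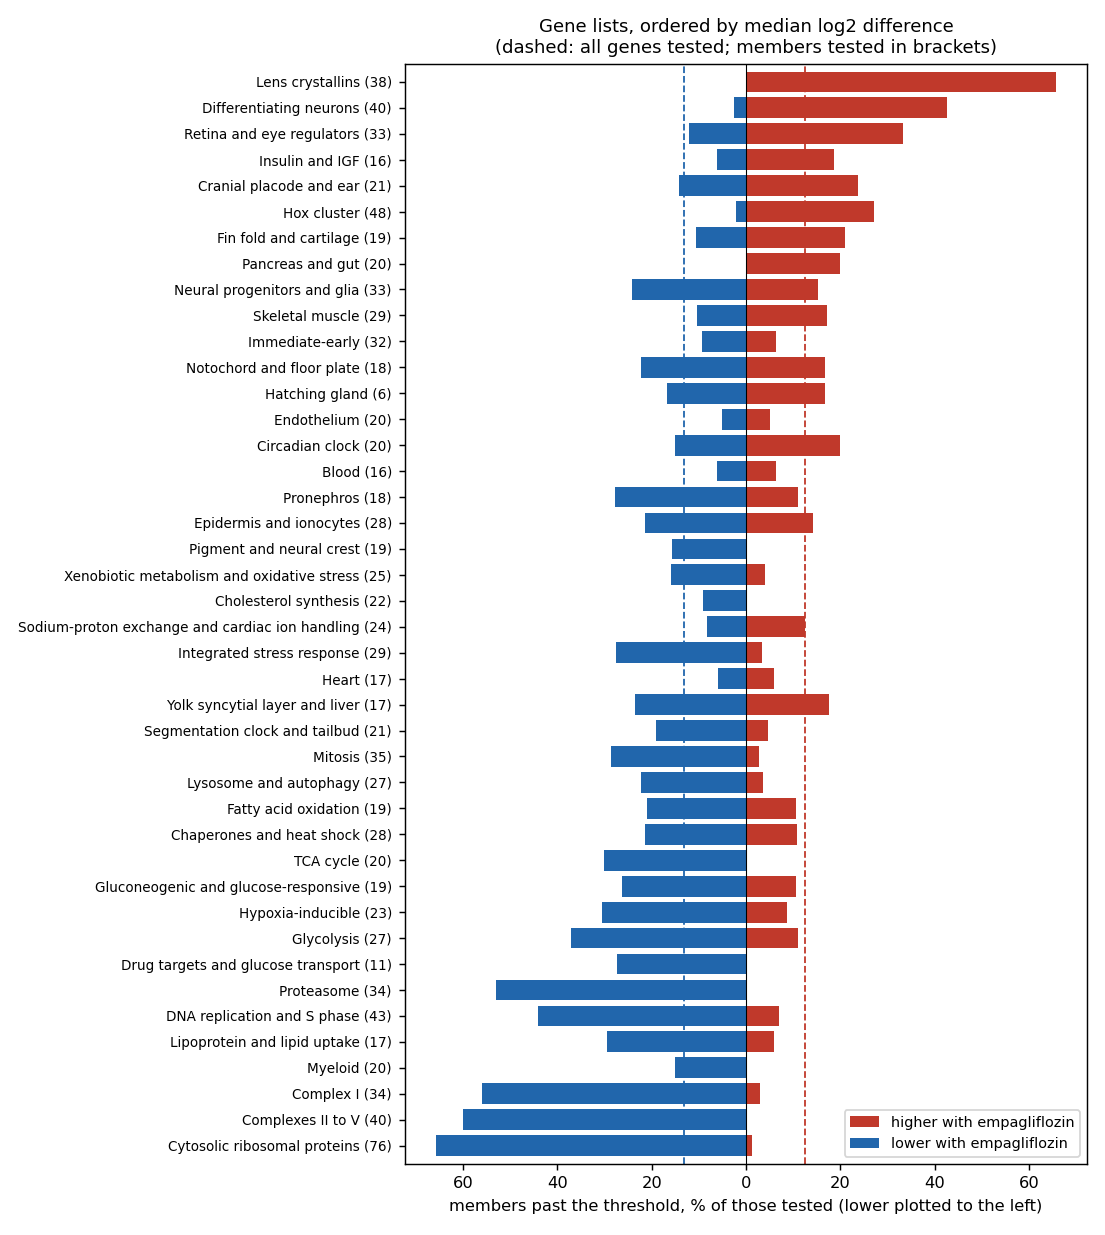
For each of the 42 gene lists, the share of tested members called higher (red, to the right) or lower (blue, to the left) with empagliflozin, in percent, ordered by median log2 difference. Dashed lines are the shares over all genes tested, 12.4% and 13.1%; lens, neuron and retina lists extend furthest to the right and the ribosome and respiratory chain lists furthest to the left.

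For most genes that differed between the compounds, the controls lay on the canagliflozin side. With the canagliflozin mean set to 0 and the empagliflozin mean to 1, the control mean lay at a median of 0.27 over the 3049 called genes, with quartiles of 0.11 and 0.44. In 2494 genes (81.8%) it was nearer to canagliflozin and in 555 nearer to empagliflozin. It lay between the compounds in 2087 genes on the canagliflozin side and 536 on the empagliflozin side, beyond canagliflozin in 407 and beyond empagliflozin in 19. The single control pools differed: pools 1, 2 and 3 had medians of 0.26, 0.16 and 0.07, and pool 4 had 0.60. With pool 4 of the control and of canagliflozin left out, a choice made after their positions were seen, 4887 genes were called. In 86.0% of them the control was nearer to canagliflozin, at a median of 0.17. Genes called higher and lower did not differ much in this respect, with 82.6% and 81.0% nearer to canagliflozin.

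Among the 42 genes with differences of at least 2-fold, the control was nearer to canagliflozin in 29 and nearer to empagliflozin in 13, at a median of 0.39. Those named here lay at 0.10 for ankrd37, 0.10 for mansc1, 0.13 for mia, 0.15 for cd36, 0.19 for ctssb.1, 0.19 for egr1 and 0.33 for crx, all on the canagliflozin side. crygm2d5 at 0.53, crygm2d8 at 0.51, crygm2d10 at 0.57, atoh7 at 0.64 and cp at 0.62 lay on the empagliflozin side. These are positions of the control mean: the atoh7 controls were split between the compounds and the cp controls were widely spread. Set against the controls, ankrd37 was at -1.28 with empagliflozin and 0.13 with canagliflozin. crygm2d5 was at 0.71 with empagliflozin and -0.80 with canagliflozin, so the controls lay about midway. neurog1 was at 0.01 with empagliflozin and 0.46 with canagliflozin, and slc2a1a at 0.03 and 0.36. Both differences in each pair share the control pools.

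**Figure D5:**
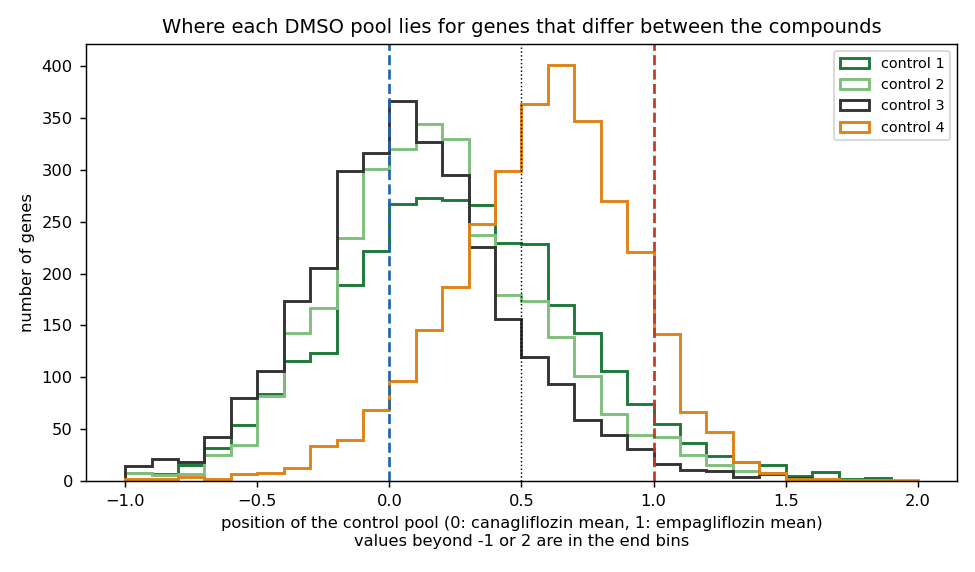
Number of called genes (vertical axis) by the position of each control pool between the canagliflozin mean (0, blue dashed line) and the empagliflozin mean (1, red dashed line); the dotted line is the midpoint and values beyond the axis are in the end bins. Control pools 1 to 3 have their medians at 0.26, 0.16 and 0.07, and control pool 4 at 0.60.

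Whether the controls departed from the midpoint of the compounds was tested in the same limma fit, gene by gene, with a contrast that is independent of the difference between the compounds. At an adjusted p of 0.05, 0 genes passed (the smallest adjusted p was 0.407), edgeR's quasi-likelihood test on reads also passed 0 and DESeq2 9, and at an unadjusted p of 0.05, 1259 genes (10.5%) did. Of the 3049 genes called between the compounds, 535 had an unadjusted p under 0.05 for the midpoint, and in 521 of these the control lay toward canagliflozin. Without pool 4 of the control and of canagliflozin, 911 genes (7.61%) passed the adjusted threshold, and 798 of them were also called between the compounds. In 794 of those 798 the control lay toward canagliflozin and in 4 toward empagliflozin. The count for this contrast therefore rested on pool 4 of the control and of canagliflozin. They were left out after they were seen to lie toward empagliflozin, which tends to move the control mean toward canagliflozin. The groups were then unequal, so the contrast was no longer independent of the difference between the compounds. The split of 794 and 4 is therefore only a description. Each compound set against the controls by itself gave 1589 called genes (13.3%) for empagliflozin and 0 (0.0%) for canagliflozin by limma. Control pool 4 enters both counts and canagliflozin pool 4 the second, and counts without them are not reported here. The count of 0 therefore does not show that canagliflozin changed no gene. Genes whose 4 controls all lay above the 8 treated pools numbered 17, and 19 had all controls below.

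The authors' deposited table for this comparison lists 11967 genes, of which 1861 have a false discovery rate under 0.05. Of those, 1847 were tested here and 1694 were called. Their filtered list holds 45 genes, 33 higher and 12 lower with empagliflozin, and 42 of the 45 were called here. The other 3 had wide spreads between pools. ccl27a, a chemokine, measured 6.43, 6.16, 7.72 and 7.32 CPM with empagliflozin, 3.25, 0.124, 1.94 and 7.56 CPM with canagliflozin and 10.1, 7.92, 0.0516 and 1.71 CPM in the controls, a difference of 1.25 (-0.08 to 2.59, adjusted p = 0.152). tcap, the titin cap protein of muscle, and mmp13a, a collagenase of macrophages and other cells, differed by -1.103 (-2.58 to 0.37, adjusted p = 0.251) and -1.06 (-3.11 to 0.99, adjusted p = 0.435). For mmp13a the pools ran from 0.436 to 11.71 CPM with empagliflozin and from 1.14 to 15.9 CPM with canagliflozin, and 1 control pool reached 50.4 CPM.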

How the data were processed

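RNA from 12 pools of 5 whole embryos was sequenced as 50 bp paired reads of poly(A) libraries made with a stranded kit, per the labels' protocols. FastQC, R 3.6.1 and the build danRer10 are named per the submitters' processing notes; for the aligner, the counter and its strand setting a name is not given in the sources used here. Values deposited by the authors are a signal per gene, CPM scaled by TMM factors and not by gene length, so levels were not compared between genes. All values came out as whole reads (100% within 0.001 reads), and the depth per pool follows from this. The p-values, false discovery rates, log2 differences and signed fold of this comparison in the authors' deposited table were set beside the fit and not used in it.

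Genes with a mean of at least 1 CPM over the 12 pools entered limma 3.58.1 (R 4.3.3), which fitted a mean per group to log2(CPM + 1) with a variance trend. The contrasts were empagliflozin minus canagliflozin, control minus the midpoint of both, and each compound minus control, all two-sided with Benjamini-Hochberg adjustment over the 11964 genes. edgeR 4.0.16 and DESeq2 1.42.0 on the recovered reads were alternatives. In data simulated for the comparison of the compounds, over 11962 genes, limma called 100% of 2-fold changes, 88.0% of 1.5-fold changes and 0.0850% of unchanged genes. The simulation took gene means and depths from these pools, gave every gene the same preset spread and set no pool apart. The real pools differ from this, so these shares do not give the power or error rate of the comparison. No pool of a group repeated another: chi-square per degree of freedom was 4.92 to 38.1.

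Named genes are the 15 largest and the 6 with the smallest p in each direction, up to 12 in each direction of the authors' filtered list, glucose transporters, and up to 6 called members of each of 42 gene lists by smallest p, from which a part is printed; some genes that the rule names are not reported here. Lists were matched by exact symbol and described by counts and medians. Rule, lists and comparison were chosen with earlier results of these data known. Alternatives were other pseudocounts, minimums, scalings, weights, tools, a replicate block and each pool left out.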

Additional observations from a re-analysis of the deposited data

Results flagged for a closer look

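Of 138 combinations of a gene described with all its pools and a group, 8 (5.80%) had a pool whose gap to its nearest neighbour, relative to the group's range, was above Dixon's 95% critical value for groups of 4; chance alone gives about 1 in 20. Among them, 3 were in canagliflozin pool 4. In that pool mansc1 was at 81.4 CPM (pools 1 to 4 were at 25.8, 27.3, 32.5 and 81.4 CPM), the actinodin gene and3 at 96.8 CPM and neurog1 at 89.1 CPM. Another 3 were in control pool 4, where mansc1 was at 77.1 CPM, pax6b at 38.6 CPM and rpa3, the low one of its group, at 19.3 CPM. The remaining ones were in the empagliflozin group: pttg1 was at 10.96 CPM in pool 2 and apoa4a at 34.0 CPM in pool 1, each the highest of its group and still below every canagliflozin pool. For mansc1, and3, pax6b and rpa3 the pool set apart lay toward the empagliflozin values, and for neurog1 away from them. What sets these pools apart was not tested.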

How the results depend on the processing

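The 3049 calls between the compounds became 5464 with sample weights (2812 higher and 2652 lower) and 4887 without pool 4 of the control and of canagliflozin (2524 and 2363). Leaving out 1 pool gave 1932 calls (931 and 1001, without canagliflozin pool 1) to 4234 (2175 and 2059, without canagliflozin pool 4). The other alternatives gave 2877 to 4219, among them 2985 with edgeR, 3340 with DESeq2 and 4219 at an adjusted p of 0.1. All 3049 genes kept their direction in every alternative run, 1633 were called in every fit that leaves out a pool and 1629 in every alternative. Kept direction is a weak check, since these genes were chosen by their p in the same data. Leaving out a control pool or changing the minimum or variance model cannot change a gene's difference. Nor can the replicate block or the fit of the compared groups alone.

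The 0 genes for the control against the midpoint became 785 with sample weights, 9 with DESeq2, 911 without both pools 4, and 0 to 39 with 1 pool left out (39 without control pool 4). Genes whose pools do not overlap, 3059 in all, numbered 3329 to 5345 with 1 pool left out, 5345 without canagliflozin pool 4. The difference of slc5a1, -0.173 CPM, ran from -0.257 to -0.0501 CPM with 1 pool left out, and that of slc5a2, -0.0176 CPM, from -0.105 to 0.0172 CPM, so its sign is not set; both lie at the limit of depth. The labels do not say whether equal pool numbers pair the samples, and the correlations cannot settle it. Deviations of same-numbered empagliflozin and canagliflozin pools correlated at -0.0936 to 0.0651, and 1 of 8 pools correlated best with its own number. Among pairs with a control pool, control and canagliflozin pool 4 correlated at 0.592, control and empagliflozin pool 3 at 0.256 and the others at -0.125 to 0.0770. Whether the pools 4 share a batch is not given in the sources used here and was not tested. A fit with the replicate block called 3456 genes (1736 and 1720), and 2975 of the 3049 remained.

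Of the 170 genes whose log2 difference between the compounds is printed, 161 were called, 145 in every alternative. The other called genes, 16, lost the call in some, and 0 of the 170 changed sign, with the limit on direction given above. Most losses came when a treated pool was left out. Of 24 list counts of at least 5, 8 moved by over 1.5 times when 1 pool was left out, as given with each list; of the 60 list counts under 5, 43 did. Leaving out a control pool cannot move a list median, and leaving out both pools 4 repeats the median without canagliflozin pool 4. With these fits counted, 21 of 630 recomputed list medians moved by more than the spread between pools. Medians near 0 also changed sign, such as immediate-early genes (-0.0089 to 0.106 with 1 pool left out) and blood (-0.052 to 0.097). A change of sign was counted as a reversal only where the median with all pools was larger than that spread, and 1 reversed in this sense. That was the xenobiotic list, -0.0438 with all pools, which ranged from -0.0491 to 0.0326 with 1 pool left out. The highest value came without canagliflozin pool 3. The cause was not tested. With 4 pools a gene's 95% interval had a median of 0.22 on each side on the log2 scale, so that smaller differences may be missed. This is not a detection limit: larger differences were also not called where pools spread widely, such as ccl27a at 1.25 (limma adjusted p = 0.152).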

Other observations

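Some of the firmest differences belonged to genes of transcription or of unknown role that the lists do not hold. bcl11aa, a zinc-finger gene whose mammalian counterpart acts in neurons and blood, was at 46.0 ± 3.75 CPM with empagliflozin, 24.9 ± 2.51 CPM with canagliflozin and 28.1 ± 3.31 CPM in the controls (SD, n = 4), a log2 difference of 0.86 (limma adjusted p = 0.000141). klf7b, a Krüppel-like factor, differed by 0.64 (adjusted p = 0.000139). rsrp1, an arginine and serine rich protein gene, was at -0.65 (adjusted p = 9.69e-05) and sid4 at -0.91 (adjusted p = 9.69e-05). In all 4 genes the empagliflozin and canagliflozin pools did not overlap.

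Genes known only by clone names were also among the largest differences. si:ch211-117m20.5 was at 128 ± 29.2 CPM with empagliflozin, 51.4 ± 20.4 CPM with canagliflozin and 87.7 ± 28.1 CPM in the controls (SD, n = 4), a difference of 1.36 (adjusted p = 0.00171), and zgc:171792 differed by 1.22 (adjusted p = 0.000310); for both the control mean lay nearer to empagliflozin, at 0.59 and 0.59 of the way from canagliflozin. si:dkey-286j15.1 and si:dkey-85k7.7 were both lower with empagliflozin, at -1.196 and -1.204 (adjusted p = 9.69e-05 and 0.000808), with the control mean nearer to canagliflozin.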
